A study of Caenorhabditis elegans with 30 samples.

Results

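RNAi against C01A2.5, the gene tads-1, was compared with the empty feeding vector L4440 in whole Caenorhabditis elegans. The comparison uses 3 libraries labelled C01A2.5 (titles 4, 9 and 14 with the prefix ZK) and the 3 L4440 libraries of that prefix (titles 1, 6 and 11), called L4440_ZK, out of 30 libraries of the series. They were chosen by their labels, with no measured value. Of the 46748 genes in the count table, 16495 passed a filter on low counts in the 15 ZK libraries and were tested. All animals were hermaphrodites of the wild-type strain N2, aged 5 days, fed bacteria that make double-stranded RNA (C01A2.5) or that carry the vector alone (L4440_ZK). No mutant allele, transgene or other agent is named, and the labels do not tell if replicate libraries were grown as independent cultures, so p-values measure the spread between these libraries, which may be technical. The other 9 ZK libraries come from worms fed R186.7, ZK795.1 or M04C9.5 RNAi and share the estimate of the spread.

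The germline of a hermaphrodite first makes sperm, late in larval life, and then switches for good to oocytes, which are filled with yolk that the intestine makes. The choice is set by a cascade of regulators that ends in fog-1 and fog-3, which direct germ cells to the sperm fate, and sperm are built with a dedicated set of transcripts, chief among them those of the major sperm proteins, which form the cytoskeleton that moves the cell. Chromosome X is known to be largely silent in germ cells, and sperm genes are known to lie mostly on the autosomes.

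The RNAi target was lower in every C01A2.5 library. Its transcript (WBGene00007217, protein coding, chromosome I 13384752 to 13387084 of WBcel235, plus strand) was at 38.6, 34.9 and 37.5 CPM in the C01A2.5 libraries, against 147, 149 and 135 CPM in the L4440_ZK libraries. The log2 fold change was -1.96 ± 0.072 (edgeR quasi-likelihood test, Benjamini-Hochberg adjusted p = 4.33e-18), and the 27 other libraries of the series lay between 96.5 and 153.8 CPM. CPM express a read count relative to the library total, scaled by trimmed-mean factors within the ZK libraries, and a log2 fold change is that of C01A2.5 over L4440_ZK ± its standard error, with n = 3 libraries per group throughout. Changes given below with ± are on this log2 scale. The gene oxa-1, which starts 735 bp downstream of tads-1 on the same strand, fell by 1.09 ± 0.057. It had a mean of 22.2 CPM in C01A2.5 and 47.1 CPM in L4440_ZK. Of the other tested neighbours C01A2.4 fell by 0.27 ± 0.053 and C01A2.6 was not called. The cause of the fall of oxa-1 was not tested. Library totals were 36337369, 39363649 and 32659468 counts for C01A2.5 and 40654747, 34893322 and 44739217 for L4440_ZK. The scaling factors of the C01A2.5 libraries were 1.12 to 1.13 and those of L4440_ZK 0.939 to 0.966. The 10 most counted genes took 8.78% to 11.3% of the counts in C01A2.5 and 6.87% to 7.04% in L4440_ZK. The first principal component of the 15 ZK libraries held 94.2% of the variance and put the C01A2.5 libraries at 167.1 to 171.2, and the 12 others at -48.4 to -37.6. In the libraries labelled M04C9.5 the labelled target dyf-5 was higher, not lower, at 6.04 to 8.65 CPM against 0.178 to 0.357 in L4440_ZK. A knockdown is thus not seen in these libraries, and whether their label is wrong was not tested. The libraries labelled M04C9.5 enter the filter on low counts, the scaling, the principal components, the estimate of the spread and the contrast with other RNAi groups. A fit without the 9 other ZK libraries tested 16149 genes. Library names end in a suffix of the kind that marks a sequencing lane, and the first C01A2.5 and the second L4440_ZK library share 1 suffix. Within that pair tads-1 was at 38.6 CPM in C01A2.5 against 149 CPM in L4440_ZK, rme-2 at 495 CPM in C01A2.5 against 1528 CPM in L4440_ZK and spe-9 at 9.97 CPM in C01A2.5 against 0.48 CPM in L4440_ZK.

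**Figure D1:**
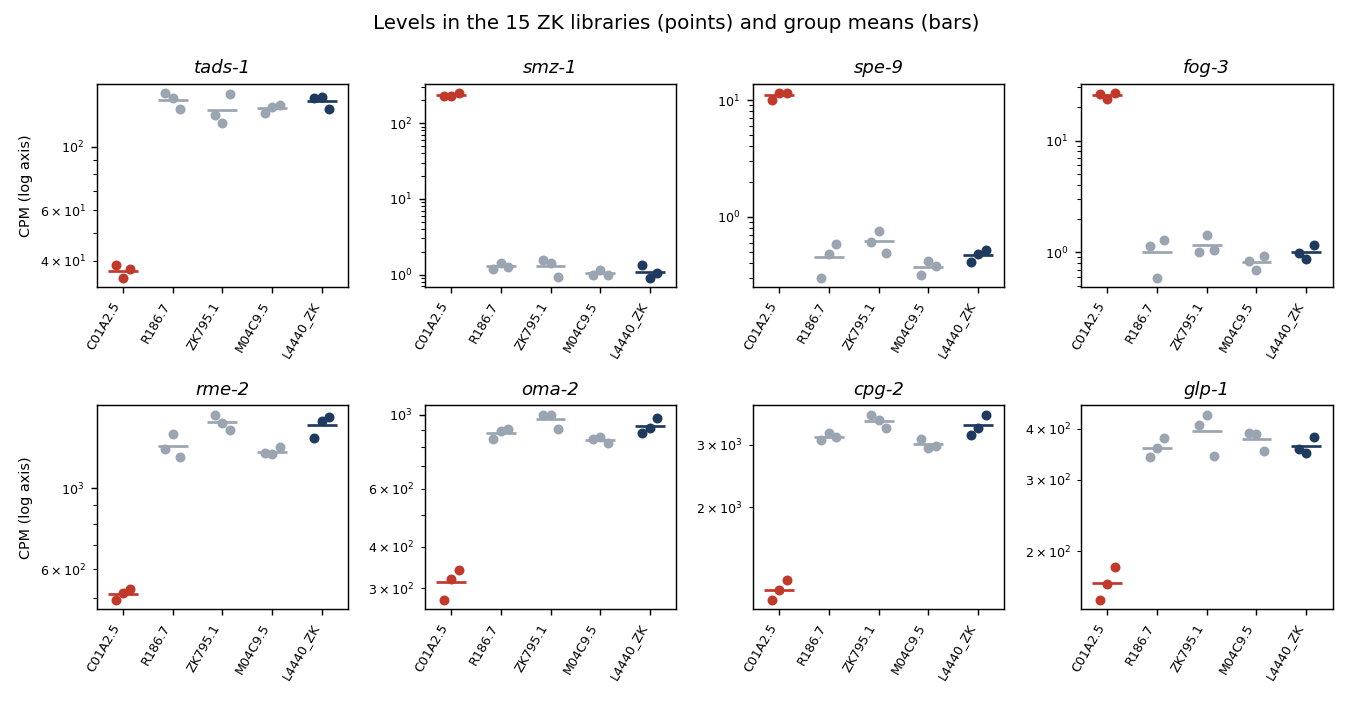
Levels of 8 genes in the 15 ZK libraries, in CPM on a log axis, with 1 point per library and a bar at the mean of each group of 3. The C01A2.5 libraries are low for the target tads-1 (34.9 to 38.7 CPM) and for rme-2, oma-2, cpg-2 and glp-1, and high for smz-1, spe-9 and fog-3, where every C01A2.5 library lies outside the range of the 12 other libraries.

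Most of the transcriptome differed. In 14524 of 16495 genes (88.1%) the adjusted p was under 0.05, with 8528 genes (51.7%) higher in C01A2.5 and 5996 (36.4%) lower. Below, rose and fell are used for genes that passed this test. Against a threshold of 2-fold (edgeR's glmTreat, adjusted p under 0.05), 3931 genes (23.8%) rose and 1023 (6.20%) fell. The 3 C01A2.5 libraries all lay above the 3 L4440_ZK libraries in 8535 genes (51.7%) and all below them in 6007 (36.4%). Genes raised more than 2-fold took 12.4%, 12.12% and 12.55% of the counts in the C01A2.5 libraries, against 1.96%, 1.89% and 1.89% in the L4440_ZK libraries. Genes lowered more than 2-fold took 5.78%, 6.37% and 6.36% of the counts in the C01A2.5 libraries, against 13.1%, 13.02% and 13.02% in the L4440_ZK libraries. These genes were chosen by the same comparison, so the shares are a description.

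How many calls pointed up varied with the scaling of the libraries. All genes had a median log2 fold change of 0.42. Relative log expression factors moved that median by -0.23, and library totals moved it by 0.24. Of all calls 58.7% were rises, against 53.0% with relative log expression factors, 65.4% with library totals, 51.8% with DESeq2 and 47.4% after centring on the median gene. Of the changes over 2-fold 79.4% were rises, against 60.1%, 93.2%, 59.5% and 45.1% in the same order. A list is therefore read below against the shares and the median of all genes.

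The direction went with the level in the control. Of 1205 genes under 0.1 CPM in L4440_ZK, 1200 rose and 0 fell, with a median of 7.24 (6.55 with the 143 genes at 0 in every control library set to a lower bound, a floor of 3 counts over the group). Between 0.1 and 1 CPM 2989 of 4051 genes rose and 175 fell, with a median of 1.22. From 1 to 10 CPM the median was 0.74. Between 10 and 100 CPM 1310 of 4427 genes rose and 2722 fell (median -0.45), and above 100 CPM 217 of 2840 rose and 2490 fell (median -0.65). The filter keeps a gene that is high in 1 group alone, so a gene near absent from the controls passed it through the C01A2.5 libraries and had to rise. At least 10 counts in each C01A2.5 library and 0 in every L4440_ZK library were found in 142 genes, 25 of them pseudogenes, and the reverse in 0 genes. None of the 142 was at 0 in all 27 other libraries of the series.

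Sperm genes made the highest group. All 30 tested major sperm protein genes rose more than 2-fold, with a median of 9.23 (9.22 with 4 genes at 0 in the controls set to their bound). The gene msp-49 had 177, 182 and 200.5 CPM in the C01A2.5 libraries, against 0.153, 0.21 and 0.143 CPM in the L4440_ZK libraries. For msp-57 the levels were 158, 147 and 162 CPM after C01A2.5 RNAi and 0.331, 0.24 and 0.0714 CPM with L4440_ZK. These genes are near-identical copies that share reads, so the split between them is uncertain, and the family took 0.345%, 0.338% and 0.381% of the counts in the C01A2.5 libraries, against 0.000632%, 0.000674% and 0.00019% in the L4440_ZK libraries. The third L4440_ZK library was the lowest for this family, and all 3 lay far under the C01A2.5 range. In the list of sperm structure and function 47 of 49 genes rose (43 more than 2-fold) and 1 fell, with a median of 7.5, or 6.77 with 2 genes at their bound.

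Transcripts of sperm chromatin and of the sperm cytoskeleton rose from near absence. The gene spch-1, which encodes a basic protein of sperm chromatin, had 307, 302 and 344 CPM in the C01A2.5 libraries, against 0.586, 0.66 and 0.19 CPM in the L4440_ZK libraries (9.41 ± 0.15, adjusted p = 9.77e-22). msd-4, a gene for a protein with a major sperm protein domain, had 420.3, 429 and 464 CPM after C01A2.5 RNAi and 0.891, 1.14 and 0.214 CPM with L4440_ZK (9.25 ± 0.23). The genes of small sperm families moved alike. All 9 tested nspd genes (nematode-specific peptide family, group D) and 14 of 15 genes of the ssp, ssq and sss families rose more than 2-fold, with medians of 9.1 and 9.04 (8.81 with 2 genes of the second list at their bound). In nspd-2 the levels were 296, 288 and 301 CPM in the C01A2.5 libraries, against 0.739, 0.66 and 0.0714 CPM in the L4440_ZK libraries. For ssq-1 they were 214, 221 and 242 CPM after C01A2.5 RNAi and 0.917, 1.02 and 0.5 CPM with L4440_ZK. The remaining member, ssp-37, rose by 0.86 ± 0.097 and stood at 11.8 ± 0.673 CPM in C01A2.5, against 6.48 ± 0.794 CPM in L4440_ZK (mean ± SD).

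Genes of each step of sperm life were among the rises. Of the genes that act while sperm form, spe-6, a kinase gene of the casein kinase 1 family, had 46.1, 43.95 and 49.4 CPM in the C01A2.5 libraries, against 4.94, 5.07 and 4.71 CPM in the L4440_ZK libraries. spe-26, which encodes an actin-binding protein, rose by 5.18 ± 0.10, and spe-4, a presenilin family gene needed for the organelles of sperm, by 6.69 ± 0.16. In the pathway that turns round spermatids into crawling sperm, spe-8 was at 24.7, 22.9 and 26.4 CPM after C01A2.5 RNAi and 0.127, 0.09 and 0.0952 CPM with L4440_ZK. The further activation genes spe-12, spe-29 and spe-43 had log2 fold changes of 6.22, 4.74 and 6.04, and snf-10, a transporter gene needed for activation by male signals, 5.97. fer-1, the ferlin gene needed to fuse sperm organelles with the membrane, had 70.4, 64.9 and 77.5 CPM in the C01A2.5 libraries, against 2.09, 1.95 and 3.17 CPM in the L4440_ZK libraries. The fertilization gene spe-9, which encodes a membrane protein that sperm need to enter the oocyte, was at 9.97, 11.5 and 11.5 CPM after C01A2.5 RNAi and 0.408, 0.48 and 0.523 CPM with L4440_ZK (4.54 ± 0.16, adjusted p = 6.44e-22). Other genes needed at fertilization rose as well, spe-38 by 4.40 ± 0.23, spe-42 by 6.91 ± 0.28 and spe-41, a calcium channel gene, by 5.57 ± 0.23. spe-11, whose protein sperm bring to the embryo, had 134, 127 and 146 CPM in the C01A2.5 libraries, against 0.611, 0.54 and 0.405 CPM in the L4440_ZK libraries. In each of these genes every C01A2.5 library lay above every L4440_ZK library.

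The exceptions were genes with a level in the controls. spe-44, a transcription factor gene that turns on part of the sperm program, was at 28.3, 27.3 and 33.9 CPM after C01A2.5 RNAi and 19.6, 18.01 and 20.4 CPM with L4440_ZK (0.62 ± 0.078). spe-39, which encodes a trafficking protein used in many cells, fell by 0.73 ± 0.049 on the log2 scale. The gene cpb-1, an RNA-binding protein gene of sperm formation, had -0.055 ± 0.061 (adjusted p = 0.393).

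Among regulators of germline sex, fog-3 stood out and the rest of the list leaned the other way. fog-3, of the Tob family, had 26.1, 23.7 and 26.8 CPM in the C01A2.5 libraries, against 0.993, 0.87 and 1.17 CPM in the L4440_ZK libraries (4.64 ± 0.14, adjusted p = 1.36e-23). fog-1, a gene of the CPEB family of RNA-binding proteins, rose less and was at 77.5, 75.05 and 88.7 CPM after C01A2.5 RNAi and 39.99, 41.9 and 53.4 CPM with L4440_ZK (0.83 ± 0.12). Of 37 genes in the list 5 rose and 30 fell, 81.1% against 36.4% of all genes. The transcription factor gene tra-1, upstream of both, had 0.11 ± 0.063 (adjusted p = 0.109). fem-3, which promotes the male fate, fell by 0.95 ± 0.060, and tra-2, which promotes the female fate, by 0.74 ± 0.054. Translational repressors fell too, gld-1 to 508 ± 29.2 CPM in C01A2.5, against 1105 ± 53.8 CPM in L4440_ZK (mean ± SD). The Nanos genes nos-1, nos-2 and nos-3 had -1.21, -1.65 and -0.95, and the Pumilio family gene puf-8 had -1.22. Of the genes of the somatic sex pathway, xol-1, which reads the number of X chromosomes, was at 3.43, 4.12 and 3.79 CPM in the C01A2.5 libraries, against 1.58, 1.41 and 1.48 CPM in the L4440_ZK libraries, her-1 rose by 0.97 ± 0.17 and the dosage compensation gene sdc-2 by 0.63 ± 0.069.

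Oocyte transcripts were abundant in both groups and lower in C01A2.5. Of all genes 36.4% fell, 6.20% more than 2-fold, and those above 100 CPM in L4440_ZK had a median of -0.65. In the list of oocyte, eggshell and early embryo genes 35 of 38 fell, 30 of them more than 2-fold, with a median of -1.34. These genes took 1.69%, 1.8% and 1.85% of the counts in the C01A2.5 libraries, against 2.77%, 2.85% and 2.99% in the L4440_ZK libraries. The yolk receptor gene rme-2 was at 495, 516 and 529 CPM in the C01A2.5 libraries, against 1373, 1528 and 1568 CPM in the L4440_ZK libraries (-1.54 ± 0.063, adjusted p = 3.44e-20). The maturation regulator gene oma-2 was at 277, 319 and 341 CPM after C01A2.5 RNAi and 882, 914 and 981 CPM with L4440_ZK. The chitin synthase gene chs-1, which builds a layer of the eggshell, had 214, 244 and 252 CPM in the C01A2.5 libraries, against 780.0, 757 and 809 CPM in the L4440_ZK libraries. Maternal messages that pattern the early embryo fell as well, pos-1 by 1.32 ± 0.069 and spn-4 by 1.39 ± 0.070. The 3 exceptions rose: perm-2 (0.93 ± 0.059) and perm-4 (0.96 ± 0.066), genes of the permeability barrier of the egg, and the caveolin gene cav-1, which was at 504, 522 and 602 CPM after C01A2.5 RNAi and 222, 207 and 172 CPM with L4440_ZK. In bulk samples of whole worms fewer cells of a type and less RNA per cell cannot be told apart, and this holds for every list of a tissue or cell type here.

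Genes of the meiotic and mitotic germline fell by a smaller step. Of all genes 36.4% fell. Between 10 and 100 CPM in L4440_ZK 2722 of 4427 did (median -0.45), and above 100 CPM 2490 of 2840 (median -0.65). The lists were not matched for level. Of 46 meiosis genes 45 fell and 1 rose, with a median of -0.95. syp-6, of the synaptonemal complex that holds paired chromosomes together, had 63.2, 72.9 and 71.3 CPM in the C01A2.5 libraries, against 155, 144 and 151 CPM in the L4440_ZK libraries. him-8, which pairs the X chromosomes, fell by 1.21 ± 0.057, and rad-51, the recombinase gene, by 0.95 ± 0.049. The exception chk-2, a kinase gene of early prophase, rose by 0.48 ± 0.079, or by 0.06 after centring (adjusted p = 0.483). Among 22 genes of germline stem cells and of P granules, the RNA granules of germ cells, 21 fell and 0 rose (median -0.91). The Notch receptor gene glp-1, which keeps germ cells dividing, was at 152, 166 and 183 CPM after C01A2.5 RNAi and 357, 349 and 382 CPM with L4440_ZK (-1.12 ± 0.077). The granule helicase gene cgh-1 fell by 1.2 ± 0.071. In DNA replication and mitosis 74 of 77 genes fell and 2 rose (median -0.80). The kinase gene cdk-1, which drives entry into mitosis, had 186, 208 and 196 CPM in the C01A2.5 libraries, against 503, 490.5 and 460.1 CPM in the L4440_ZK libraries. cyb-2.2, a cyclin B gene, fell by 1.53 ± 0.053, while cyd-1, the cyclin D gene of larval divisions, rose by 0.86 ± 0.079.

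Zygotic embryonic genes had members on both sides, near the shares of all genes. Of 24 tested 13 rose (54.2%) and 8 fell (33.3%), beside 51.7% and 36.4% of all genes. Among those that fell, pes-10 had 3.01, 3.55 and 3.96 CPM after C01A2.5 RNAi and 12.05, 11.7 and 8.52 CPM with L4440_ZK, and the T-box gene tbx-38 fell by 1.79 ± 0.23. Its relative tbx-37 was not called (-0.45 ± 0.21, adjusted p = 0.0548). Among those that rose were hlh-1 (a MyoD family gene of body muscle) by 2.74 ± 0.20, unc-120 by 2.02 ± 0.13 and the foregut gene pha-4 by 1.57 ± 0.10. The median of the list was 0.62, yet it took 0.0307 ± 0.0014% of the counts in C01A2.5, against 0.0345 ± 0.0012% in L4440_ZK.

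**Figure D2:**
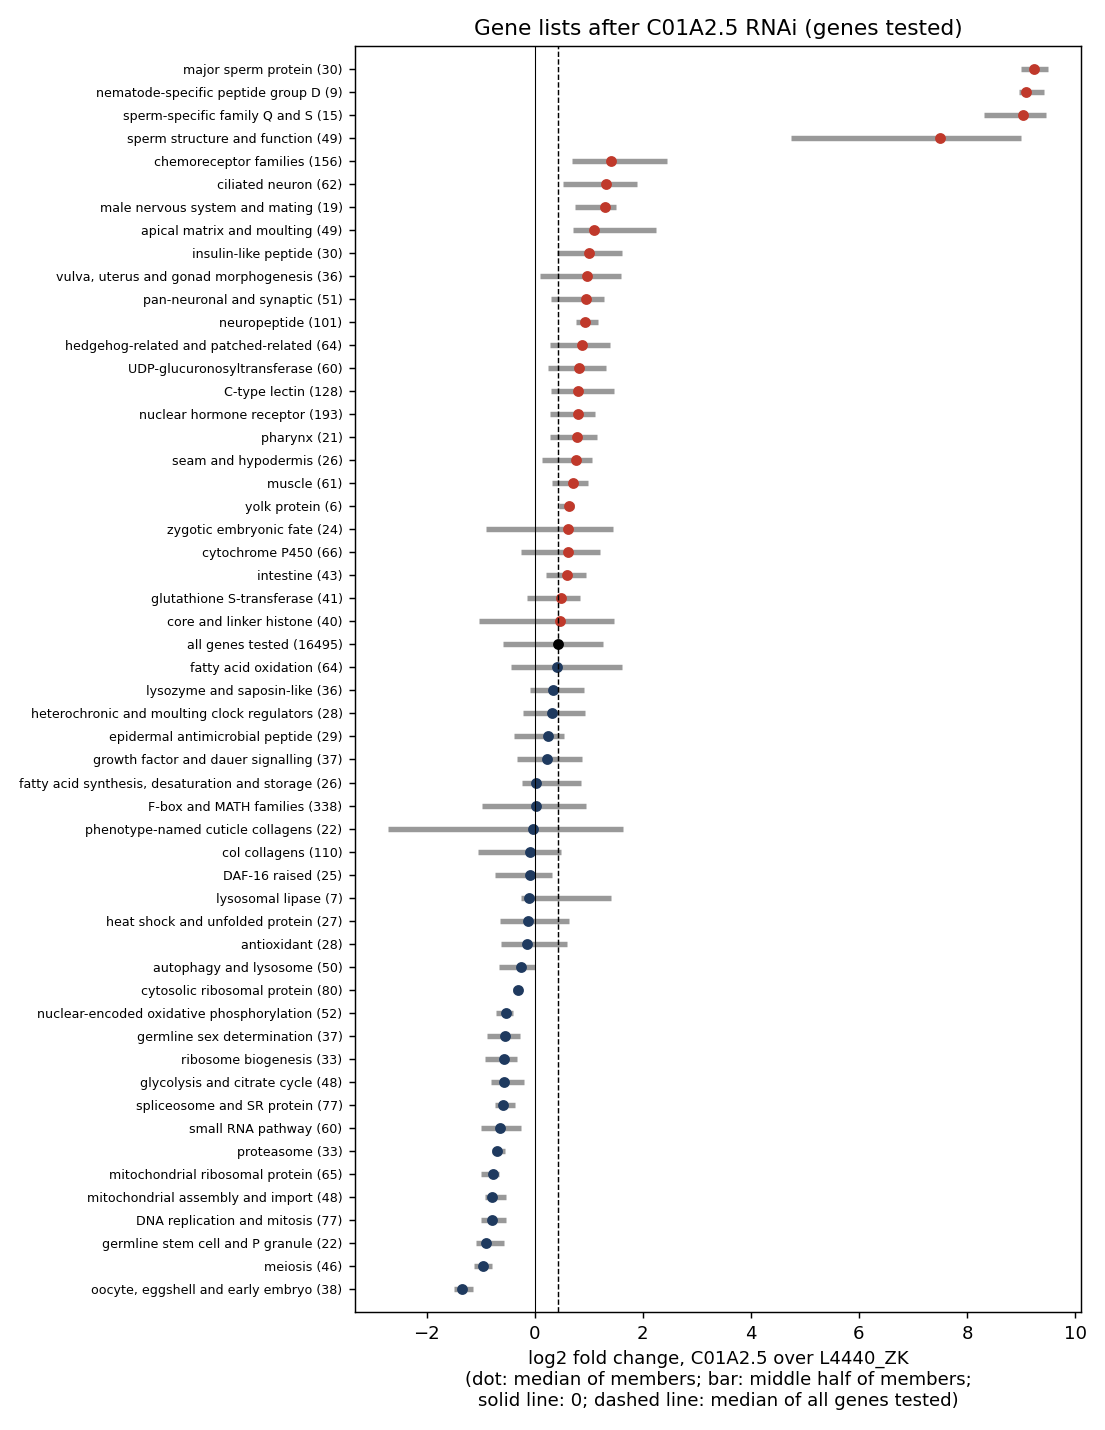
Log2 fold change of C01A2.5 over L4440_ZK for the 53 gene lists and all genes tested (names at left, with the number of genes tested). A dot marks the median of the members and a bar their 25th to 75th percentile; the dashed line is the median of all genes, 0.42. The 4 sperm lists stand at 7.5 to 9.23, lists of sensory neurons, the male nervous system and the apical matrix at 1.1 to 1.41 (the highest being the chemoreceptor genes that passed the filter), and lists of the germline, mitochondria and protein turnover below 0, down to -1.34 for oocyte genes.

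The labelled source, whole hermaphrodites, was checked with marker sums. Summed over 4 sperm markers (smz-1, gsp-3, gsp-4 and spe-9) the level was 563.3 to 623.3 CPM in C01A2.5 and 1.79 to 2.47 in L4440_ZK. Summed over 8 oocyte markers it was 5631 to 6085 CPM in C01A2.5 against 11080 to 12580 in L4440_ZK. Body muscle markers summed to 451.8 to 524.9 CPM in C01A2.5 and 318.2 to 370.5 in L4440_ZK, and pharynx markers to 48.4 to 50.2 in C01A2.5 and 24.2 to 27.5 in L4440_ZK. The sum of the neuron markers overlapped between the groups, at 234.1 to 255.6 CPM in C01A2.5 and 219.4 to 243.7 in L4440_ZK. Of its 4 members 2 rose (rab-3 by 0.99 ± 0.11 and unc-64), 1 fell (unc-119, by 0.76 ± 0.072) and the most counted, snb-1, was not called (-0.048 ± 0.051, adjusted p = 0.376). Of 4 epidermis markers 3 rose and 1 fell. The sum was 156.9 to 164.5 CPM in C01A2.5 against 218.6 to 230.1 in L4440_ZK and follows lin-26, the member that fell, which was at 84.7, 90.8 and 95.96 CPM after C01A2.5 RNAi and 173, 172 and 185 CPM with L4440_ZK. Of 8 markers of male neurons 5 were tested and 4 rose, and their sum was 2.33 to 3.87 CPM in C01A2.5 against 0.96 to 1.12 in L4440_ZK. The polycystin gene lov-1 was at 0.416, 0.362 and 0.352 CPM in the C01A2.5 libraries, against 0.0255, 0.03 and 0.0476 CPM in the L4440_ZK libraries, and its partner gene pkd-2 at 1.03, 0.339 and 0.298 CPM after C01A2.5 RNAi and 0.0509, 0 and 0.0476 CPM with L4440_ZK. Of the others cwp-1 had 1 count over the C01A2.5 libraries and 0 over the L4440_ZK libraries, and cwp-2 had 9 and 5. The part of these low male transcripts in the sperm result was not tested. In the wider list of male nervous system and mating genes 15 of 19 rose and 0 fell (median 1.30), beside 51.7% of all genes that rose. Those of the list that rose included mab-3 (2.83 ± 0.22) and the seminal protease inhibitor gene swm-1 (1.30 ± 0.072).

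Yolk and intestinal transcripts rose, while most oocyte genes fell. Of the 6 vit genes, which encode yolk proteins and share reads among near-identical copies, 5 rose and 0 fell, or 3 and 1 after centring. In the 2-fold test 0 of the vit genes rose. They took 8.45%, 6.7% and 5.88% of the counts in the C01A2.5 libraries, against 3.93%, 3.81% and 4.09% in the L4440_ZK libraries, and the first C01A2.5 library was the highest. Of 43 intestinal genes 31 rose and 5 fell (median 0.60), or 21 and 12 after centring (median 0.18). They took 1.4 ± 0.073% of the counts in C01A2.5, against 0.777 ± 0.021% in L4440_ZK. The gut GATA factor gene elt-2 was at 22.1, 18.9 and 19.7 CPM in the C01A2.5 libraries, against 9.45, 8.85 and 9.69 CPM in the L4440_ZK libraries. The lysosomal protease genes cpl-1 (1.5 ± 0.057) and cpz-1 (1.70 ± 0.055) rose, while cpr-5, another cathepsin gene, had 13.7, 13.98 and 12.9 CPM after C01A2.5 RNAi and 49.7, 45.5 and 44.7 CPM with L4440_ZK, and the metal and iron genes mtl-1 (-1.35 ± 0.15) and ftn-1 (-1.49 ± 0.096) fell. far-2, a gene for a fatty acid and retinol binding protein, was at 4981, 5195 and 5010.0 CPM in the C01A2.5 libraries, against 2098, 1978 and 2259 CPM in the L4440_ZK libraries.

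In the epidermis, genes of the apical matrix that precedes the cuticle rose. Of 49 apical matrix and moulting genes 41 rose, 21 more than 2-fold, and 3 fell, with a median of 1.1. Among all genes 51.7% rose, 23.8% more than 2-fold. After centring 33 of the 49 rose, 14 more than 2-fold (median 0.68). With all 6 L4440 libraries as control 30 of 50 rose, 8 more than 2-fold, with a median of 0.87 beside 0.32 for all genes. The summed share of the list was still no higher, with 0.144 ± 0.002% of the counts in C01A2.5, against 0.147 ± 0.0022% in L4440_ZK. Its abundant members egg-6 and bli-4 fell by 1.41 ± 0.061 and 0.48 ± 0.051. The zona pellucida domain gene noah-1 was at 44.4, 54.3 and 44.99 CPM in the C01A2.5 libraries, against 8.81, 10.7 and 7.92 CPM in the L4440_ZK libraries, and noah-2 rose by 2.25 ± 0.096. The fibrillin-like gene fbn-1 rose by 2.22 ± 0.11, the lipocalin gene lpr-3 by 2.65 ± 0.13 and the protease inhibitor gene mlt-11, which is needed to moult, by 2.63 ± 0.13. sym-1, a gene for a leucine-rich repeat protein of the matrix, had 29.03, 31.6 and 26.04 CPM after C01A2.5 RNAi and 4.53, 4.41 and 3.40 CPM with L4440_ZK. Of the regulators of larval timing and of the moulting clock 15 of 28 rose (53.6%) and 8 fell (28.6%), beside 51.7% and 36.4% of all genes. Their median of 0.32 became -0.10 after centring. The nuclear receptor gene nhr-25, a moulting regulator, was at 7.72, 8.01 and 7.72 CPM in the C01A2.5 libraries, against 1.81, 2.01 and 1.78 CPM in the L4440_ZK libraries, hbl-1 rose by 1.74 ± 0.090, and nhr-23 had 0.058 ± 0.068 (adjusted p = 0.418).

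Cuticle collagens were split, and their counts depend on the setting. Of 22 collagen genes named for a body-shape phenotype 9 rose and 9 fell. In the fit of the 6 libraries only 15 of them passed the filter, of which 9 rose and 2 fell. In the fit of all 30 libraries 9 of 22 rose and 2 fell. With all 6 L4440 libraries as control 3 of 22 rose and 12 fell. The furrow collagen genes dpy-2, dpy-3, dpy-7, dpy-9 and dpy-10, whose products lie in the rings of the cuticle, all rose, by 2.53, 2.73, 2.63, 1.5 and 0.81. With all 6 L4440 libraries of the series as control none of these 5 passed the test, and the values were 0.81, 0.74, 0.65, -0.21 and 0.37 for dpy-2, dpy-3, dpy-7, dpy-9 and dpy-10. dpy-14 was at 40.9, 56.2 and 46.3 CPM in the C01A2.5 libraries, against 4.89, 5.85 and 3.71 CPM in the L4440_ZK libraries. rol-1, dpy-5, dpy-13, bli-6 and sqt-1 fell from low levels, dpy-13 with 0.098, 0.158 and 0.108 CPM after C01A2.5 RNAi and 0.815, 2.64 and 0.619 CPM with L4440_ZK, and in a fit of all 30 libraries the calls of rol-1, bli-6 and sqt-1 were lost (adjusted p = 0.0615, 0.0918 and 0.0807). The second L4440_ZK library was the highest of the controls for dpy-13. The median of this list was -0.04, and it was 0.20 with library totals and 0.62 without L4440_ZK replicate 2. It was 1.34 over the 15 genes tested in a fit of the 6 libraries alone. With all 6 L4440 libraries of the series as control it was -2.36. Of 110 col genes 36 rose and 38 fell, and their median of -0.09 became 0.15 with library totals and 0.10 without L4440_ZK replicate 2. With all 6 L4440 libraries as control 22 of 124 rose and 65 fell (median -1.33), and in the fit of all 30 libraries 26 rose and 18 fell. col-139 stood at 0.245, 0.249 and 0.108 CPM in the C01A2.5 libraries, against 7.44, 7.50 and 1.88 CPM in the L4440_ZK libraries, with the third control library well under the other 2.

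In other epidermal and gonadal lists more genes rose than fell, as among all genes. Of those 51.7% rose, 23.8% more than 2-fold, and 36.4% fell. Between 1 and 10 CPM in L4440_ZK 2812 of 3972 genes rose, and these lists were not matched for level. Of 64 hedgehog-related and patched-related genes 47 rose and 4 fell (median 0.87), but the list took 0.123 ± 0.0025% of the counts in C01A2.5, against 0.15 ± 0.0024% in L4440_ZK. With all 6 L4440 libraries as control 27 of 67 rose and 11 fell, with a median of 0.27 beside 0.32 for all genes. The abundant ptc-1 and ptr-2 fell by 1.01 ± 0.056 and 1.18 ± 0.063. Of 26 seam and hypodermis genes 18 rose (69.2%) and 6 fell. Of 36 genes of vulva, uterus and gonad shaping 24 rose (66.7%), 13 of them more than 2-fold (36.1%), and 6 fell. Matrix genes that guide the migrating gonad were among them: the papilin gene mig-6 had 240.3, 226 and 212 CPM in the C01A2.5 libraries, against 50.5, 58.4 and 59.0 CPM in the L4440_ZK libraries, and the protease genes gon-1 and mig-17 rose by 1.33 ± 0.087 and 2.17 ± 0.10. lin-3, the EGF gene that induces the vulva, fell to 36.8 ± 2.38 CPM in C01A2.5, against 77.99 ± 4.03 CPM in L4440_ZK (mean ± SD).

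Neuronal genes rose broadly and modestly. Of all genes 51.7% rose (median 0.42). Between 0.1 and 1 CPM in L4440_ZK 2989 of 4051 did (median 1.22), and from 1 to 10 CPM 2812 of 3972 (median 0.74). The lists were not matched for level. Of 62 genes of ciliated neurons 50 rose (80.7%) and 6 fell, with a median of 1.32. The channel gene osm-9 was at 4.16, 2.31 and 2.36 CPM in the C01A2.5 libraries, against 0.382, 0.36 and 0.405 CPM in the L4440_ZK libraries, with the first C01A2.5 library the highest. The transport genes of the cilium che-13 and osm-5 rose by 2.96 ± 0.22 and 2.16 ± 0.24, and odr-10, the diacetyl receptor gene, was at 1.05, 1.27 and 0.921 CPM after C01A2.5 RNAi and 0.0509, 0 and 0.0238 CPM with L4440_ZK. daf-19, the RFX factor gene that turns on ciliary genes, fell by 0.68 ± 0.061. Most chemoreceptor genes did not pass the filter, which keeps genes high in 1 group, so the 156 that passed do not stand for the family. In a fit without the filter 301 of 1258 chemoreceptor genes rose and 15 fell, beside 9338 and 6384 of 27238 genes in all. In the pan-neuronal and synaptic list 40 of 51 rose and 9 fell (median 0.95), yet it took 0.335 ± 0.0026% of the counts in C01A2.5, against 0.373 ± 0.0016% in L4440_ZK. The syntaxin gene unc-64 rose by 1.13 ± 0.070 and the calcium channel gene unc-2 by 1.73 ± 0.084, while tdc-1, a gene for tyrosine decarboxylase that the gonadal sheath also uses, was at 151, 171 and 169 CPM in the C01A2.5 libraries, against 464, 434 and 453 CPM in the L4440_ZK libraries.

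Peptide genes followed. Of 101 neuropeptide genes 90 rose and 3 fell, with a median of 0.93, and the list took 0.0995 ± 0.0046% of the counts in C01A2.5, against 0.0493 ± 0.00091% in L4440_ZK. flp-15, of the FMRFamide-like family, was at 16.24, 14.2 and 14.3 CPM after C01A2.5 RNAi and 2.96, 2.76 and 2.52 CPM with L4440_ZK, and nlp-4 at 19.7, 20.3 and 20.6 CPM in the C01A2.5 libraries, against 0.56, 0.45 and 0.262 CPM in the L4440_ZK libraries. Of 30 insulin-like genes 21 rose and 1 fell (median 0.997). ins-7, expressed in gut and neurons, had 46.3, 48.0 and 46.9 CPM after C01A2.5 RNAi and 8.63, 8.22 and 8.49 CPM with L4440_ZK. daf-28, an insulin gene that keeps larvae out of dauer, rose by 1.64 ± 0.21.

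Muscle and pharynx genes rose too, beside 51.7% of all genes that rose (median 0.42). In muscle 49 of 61 genes rose and 7 fell (median 0.71), and the list took 0.563 ± 0.017% of the counts in C01A2.5, against 0.422 ± 0.0057% in L4440_ZK. With all 6 L4440 libraries as control 30 of 61 rose and 7 fell, with a median of 0.34 beside 0.32 for all genes. The alpha-actinin gene atn-1 was at 181, 174 and 171 CPM in the C01A2.5 libraries, against 64.3, 60.6 and 66.2 CPM in the L4440_ZK libraries, and the acetylcholine receptor gene unc-29 rose by 2.08 ± 0.15. The minor body muscle myosin gene myo-3 was at 47.01, 41.4 and 38.8 CPM after C01A2.5 RNAi and 27.99, 32.4 and 30.9 CPM with L4440_ZK. Of 21 pharynx genes 14 rose and 5 fell, with the pharyngeal myosin gene myo-2 up by 0.98 ± 0.078.

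Lists of defence and detoxification had members on both sides, beside 51.7% of all genes that rose. Of 36 lysozyme and saposin-like genes 20 rose (55.6%) and 8 fell, with a median of 0.34 that became -0.09 after centring, and the list took 1.03 ± 0.041% of the counts in C01A2.5, against 0.557 ± 0.016% in L4440_ZK. The lysozyme gene lys-7 was at 4753, 4605 and 4316 CPM in the C01A2.5 libraries, against 2139, 2022 and 2085 CPM in the L4440_ZK libraries, while spp-17 fell to 45.7 ± 5.46 CPM in C01A2.5, against 140.4 ± 2.62 CPM in L4440_ZK (mean ± SD). Of 128 C-type lectin genes 92 rose and 11 fell (median 0.79), or 61 and 21 after centring, and the abundant clec-87 and clec-88 fell by 1.48 ± 0.062 and 1.48 ± 0.057. Of 60 UDP-glucuronosyltransferase genes, which attach sugars to small molecules, 45 rose and 7 fell (median 0.81), ugt-9 with 21.9, 26.96 and 22.3 CPM after C01A2.5 RNAi and 0.357, 0.48 and 0.428 CPM with L4440_ZK and ugt-44 by 1.78 ± 0.069. Of 66 cytochrome P450 genes 40 rose and 16 fell. cyp-36A1 was at 75.03, 73.7 and 71.6 CPM in the C01A2.5 libraries, against 16.3, 19.03 and 18.6 CPM in the L4440_ZK libraries, while cyp-25A1 and cyp-35A2 fell by 1.79 ± 0.081 and 1.31 ± 0.068. Of 193 nuclear hormone receptor genes 145 rose and 23 fell (median 0.79). Of 41 glutathione S-transferase genes 22 rose (53.7%) and 8 fell, or 12 and 13 after centring, and gst-4, a reporter of the oxidative stress factor SKN-1, fell by 1.34 ± 0.093.

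Stress lists were divided, beside 51.7% of all genes that rose and 36.4% that fell. Of 27 heat shock and unfolded protein genes 11 rose and 13 fell, with a median of -0.13 that became 0.11 with library totals. The mitochondrial chaperonin gene hsp-60 was at 176, 175 and 179 CPM in the C01A2.5 libraries, against 372, 461 and 477 CPM in the L4440_ZK libraries, and hsp-6 fell by 0.75 ± 0.080. hsp-17, a small heat shock protein gene, had 103, 97.3 and 92.7 CPM after C01A2.5 RNAi and 32.1, 32.2 and 31.1 CPM with L4440_ZK. Of 28 antioxidant genes 10 rose and 15 fell (median -0.15, or 0.10 with library totals), with sod-3, a mitochondrial superoxide dismutase gene, down by 1.30 ± 0.14. Of 25 genes known to be raised by DAF-16, the FOXO factor of insulin signalling, 9 rose and 9 fell, with a median of -0.09 that became 0.15 with library totals. Of 29 epidermal antimicrobial peptide genes 10 rose and 8 fell (median 0.24, or -0.19 after centring). Of 338 F-box and MATH genes 140 rose and 142 fell, with a median of 0.02 that became -0.21 with relative log expression factors.

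Nearly all genes of mitochondrial ribosomes, mitochondrial assembly, oxidative phosphorylation and the proteasome fell. Of all genes 36.4% fell, but above 100 CPM in L4440_ZK 2490 of 2840 did (median -0.65). The lists were not matched for level. Of 65 mitochondrial ribosomal protein genes 65 fell (median -0.78), mrpl-36 with 10.3, 12.8 and 10.5 CPM in the C01A2.5 libraries, against 28.5, 27.8 and 25.3 CPM in the L4440_ZK libraries. Of 48 genes of mitochondrial assembly and import 47 fell, coa-5, an assembly factor gene of cytochrome oxidase, with 13.1, 13.5 and 13.7 CPM after C01A2.5 RNAi and 34.95, 36.4 and 36.3 CPM with L4440_ZK. In oxidative phosphorylation 50 of 52 nuclear genes fell (median -0.54). Of the pair of genes for the b subunit of ATP synthase, asb-1, the copy known for the germline, fell by 0.96 ± 0.051, and asb-2 by 0.30 ± 0.056, or by 0.058 with library totals (adjusted p = 0.312). Of 33 proteasome genes 32 fell (median -0.70), and of 77 spliceosome genes 68 fell and 5 rose (median -0.60). Of 80 cytosolic ribosomal protein genes 73 fell and 4 rose, with a smaller median of -0.31. That count depends on the setting, with 27 falls (median -0.07) with library totals and 14 (median -0.12) with all 6 L4440 libraries as control. The exceptions rpl-11.2, rpl-24.2, rpl-25.1 and rpl-42 rose, although rpl-24.2 had -0.15 after centring. Of these rpl-11.2 had 241, 221 and 209 CPM in the C01A2.5 libraries, against 104.6, 109 and 101 CPM in the L4440_ZK libraries while its partner rpl-11.1 had 775, 786 and 762 CPM after C01A2.5 RNAi and 1181, 1221 and 1155 CPM with L4440_ZK. In 50 autophagy and lysosome genes 32 fell and 10 rose, or 21 and 19 with library totals. Of 33 ribosome biogenesis genes 26 fell and 3 rose.

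In several of these lists the member that rose was a second copy of a gene whose usual copy fell. pfk-1.2, a phosphofructokinase gene, was at 56.6, 54.9 and 65.6 CPM in the C01A2.5 libraries, against 0.153, 0.06 and 0.0476 CPM in the L4440_ZK libraries, while pfk-1.1 had -0.41 ± 0.049. cyc-2.2, a cytochrome c gene, was at 129.9, 130.2 and 144 CPM after C01A2.5 RNAi and 0.204, 0.21 and 0.0952 CPM with L4440_ZK, and cyc-2.1 had -0.48 ± 0.047. In the PP1 phosphatases the sperm copies gsp-3 and gsp-4 rose by 8.88 ± 0.15 and 9.5 ± 0.14, and gsp-1 and gsp-2 fell by 0.35 ± 0.051 and 0.62 ± 0.051. The cyclophilin gene cyn-2 was at 147, 142 and 158 CPM in the C01A2.5 libraries, against 3.90, 3.93 and 2.95 CPM in the L4440_ZK libraries, whereas cyn-7 fell by 0.97 ± 0.055. For rpn-6.2, a proteasome lid gene, the change was 1.66 ± 0.063, and for rpn-6.1 it was -0.64 ± 0.053. Genes above 100 CPM in L4440_ZK had a median of -0.65. The falls of pfk-1.1, cyc-2.1, gsp-1, gsp-2 and rpn-6.1 were no larger than that, while the fall of cyn-7 was. The copies were not matched for level. These pairs were picked after their values had been seen, and a change of 1 copy does not show that the other was unaffected.

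**Figure D3:**
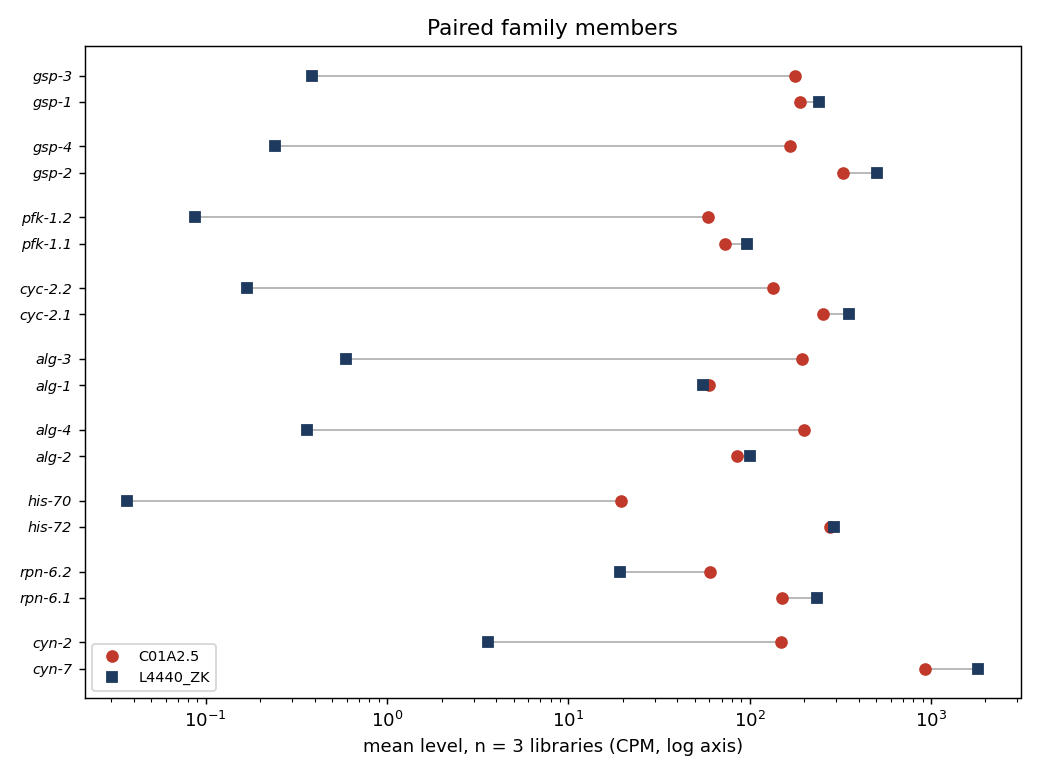
Mean levels of 9 pairs of family members in CPM on a log axis (n = 3 libraries per group), with C01A2.5 as red circles and L4440_ZK as blue squares joined by a line for each gene. The upper gene of each pair lies to the right in C01A2.5, cyc-2.2 at 135 against 0.17 CPM, and the lower gene differs little or lies to the left. CPM are not divided by length, so levels are to be compared within a gene.

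The small RNA pathway, which includes the machinery of RNAi itself, held both directions. Of 60 genes 48 fell and 7 rose (median -0.64), beside 36.4% and 51.7% of all genes. The Argonaute genes alg-3 and alg-4, known for the small RNAs of sperm formation, rose, alg-3 with 192, 179.6 and 211 CPM in the C01A2.5 libraries, against 0.662, 0.69 and 0.428 CPM in the L4440_ZK libraries and alg-4 by 9.15 ± 0.26, while alg-1 of the microRNA pathway had 0.10 ± 0.062 (adjusted p = 0.128). ergo-1, an Argonaute gene of oocytes and embryos, was at 206, 232 and 233 CPM after C01A2.5 RNAi and 476, 522 and 550.5 CPM with L4440_ZK. Genes that import double-stranded RNA differed, with sid-1 at 36.6, 43.3 and 45.7 CPM in the C01A2.5 libraries, against 93.2, 93.0 and 107 CPM in the L4440_ZK libraries and sid-2, which acts in the gut lumen, up by 1.07 ± 0.074. The RNA polymerase family gene rrf-2 rose by 2.37 ± 0.12. The libraries were all from worms fed RNAi bacteria, L4440_ZK included.

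Histone genes were split. Of 40 that passed the filter 20 rose and 16 fell. The H3.3 variant gene his-70 was at 19.4, 18.7 and 20.7 CPM in the C01A2.5 libraries, against 0.0509, 0.06 and 0 CPM in the L4440_ZK libraries, and his-72, another H3.3 gene, had -0.088 ± 0.052 (adjusted p = 0.114). Linker histone genes went both ways, hil-7 with 16.3, 17.6 and 16.02 CPM after C01A2.5 RNAi and 1.38, 1.44 and 1.12 CPM with L4440_ZK, his-24 up by 1.74 ± 0.15 and hil-4 down by 1.22 ± 0.055. Core histone genes such as his-67 fell, by 1.86 ± 0.15. Polyadenylated RNA was selected, so histone transcripts without a poly(A) tail were not measured, and the core histone copies share reads.

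In lipid metabolism some members rose from near absence. In fatty acid oxidation 35 of 64 genes rose (54.7%) and 22 fell (34.4%), beside 51.7% and 36.4% of all genes. More than 2-fold rose 24 (37.5%), beside 23.8% of all genes. The acyl-CoA dehydrogenase gene acdh-8 was at 138, 145 and 161 CPM in the C01A2.5 libraries, against 0.408, 0.39 and 0.19 CPM in the L4440_ZK libraries, and the acyl-CoA synthetase gene acs-18 rose by 8.96 ± 0.24, while acdh-1, a gene of branched amino acid and propionate breakdown, was at 75.6, 77.4 and 75.7 CPM after C01A2.5 RNAi and 250.3, 254 and 286 CPM with L4440_ZK. The median of 0.41 became -0.02 after centring. Peroxisomal genes that act in ascaroside pheromone synthesis were among the rises, acox-1.1 with 49.6, 51.2 and 53.2 CPM in the C01A2.5 libraries, against 17.98, 16.6 and 17.4 CPM in the L4440_ZK libraries, maoc-1 by 1.18 ± 0.065, dhs-28 by 1.23 ± 0.054 and daf-22 by 1.42 ± 0.056. These 4 were picked after their values had been seen. Of 26 genes of fatty acid synthesis and storage 13 rose and 10 fell (median 0.02, or -0.21 with relative log expression factors), with elo-7, an elongase gene, at 18.3, 18.4 and 23.3 CPM after C01A2.5 RNAi and 0.0764, 0.12 and 0 CPM with L4440_ZK. In glycolysis and the citrate cycle 37 of 48 genes fell and 4 rose (median -0.58), beside 36.4% and 51.7% of all genes. The glycogen phosphorylase gene pygl-1 was at 501, 528 and 532 CPM in the C01A2.5 libraries, against 1322, 1429 and 1509 CPM in the L4440_ZK libraries. The glyceraldehyde phosphate dehydrogenase genes gpd-1 and gpd-4, near-identical copies that share reads, fell by 1.41 ± 0.056 and 1.18 ± 0.053.

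Signalling genes of growth and dauer entry kept near the shares of all genes (51.7% up and 36.4% down). Of 37 genes 19 rose (51.4%) and 14 fell (37.8%), with a median of 0.22, or -0.01 with relative log expression factors. daf-7, the TGF-beta gene that keeps larvae out of dauer, was at 4.04, 4.34 and 3.74 CPM in the C01A2.5 libraries, against 1.38, 1.26 and 1.86 CPM in the L4440_ZK libraries, and the steroid receptor gene daf-12 rose by 1.17 ± 0.080.

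The steep rises lay on the autosomes. A fitted rise of more than 32-fold that passed the 2-fold test was found in 1425 genes, 1266 of them protein coding, with median levels of 14.8 CPM in C01A2.5 and 0.071 CPM in L4440_ZK. With genes at 0 in the controls set to their bound the number was 1377. They made up 1405 of 14126 autosomal genes (9.95%) and 12 of 2228 genes on X (0.539%), or 1361 and 9 with the bound. By chromosome the share was 11.5% on I, 10.2% on II, 6.45% on III, 14.1% on IV and 7.53% on V. Among genes under 1 CPM in L4440_ZK, 12 of 686 on X and 1401 of 5255 in all rose so far. Genes near absent from the controls passed the filter through the C01A2.5 libraries and had to rise, so these shares are a description. Of the 93 tested genes in the 4 sperm lists 79 were among the 1425 and 0 lay on X, so most of the 1425 are in none of these lists. Major sperm protein genes lay on II (12) and IV (18). Only 322 of the 1425 carry a gene-class name.

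Genes on X as a whole leaned upward by small steps. Their median was 0.71, and 67.9% rose and 17.8% fell, whereas 28.1% to 49.2% of the genes of each autosome fell. The share of counts from X was 10.9 ± 0.84% in C01A2.5 and 6.93 ± 0.12% in L4440_ZK. Yolk genes on X such as vit-2 (21020, 16300 and 14980 CPM in the C01A2.5 libraries, against 9832, 9498 and 10540 CPM in the L4440_ZK libraries) are part of that share. Medians by autosome were -0.12 on I, 0.28 on II, -0.14 on III, 0.50 on IV and 0.64 on V. Genes are not replicates, so no test was made across them.

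**Figure D4:**
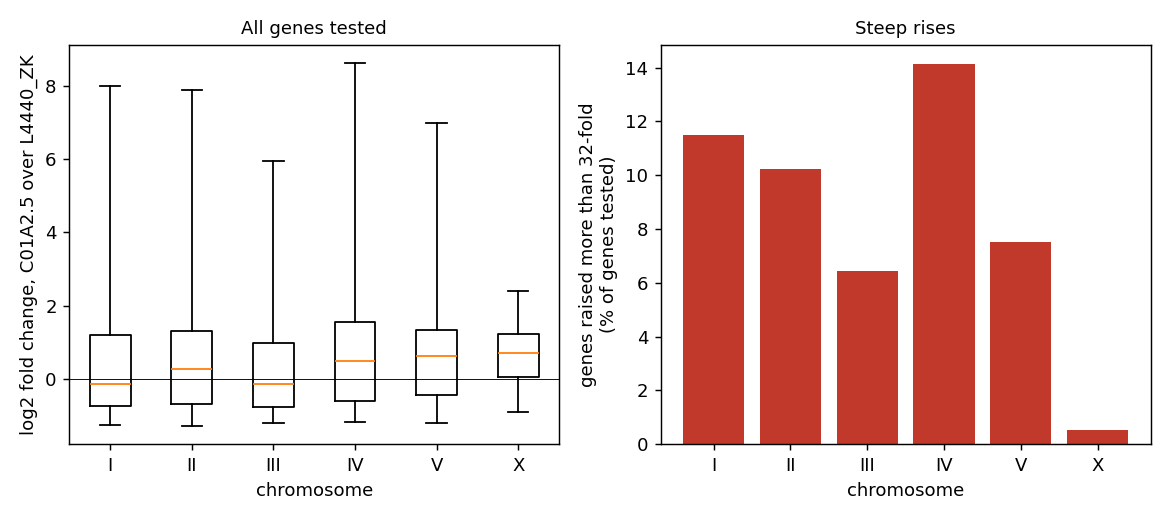
Left, log2 fold change of C01A2.5 over L4440_ZK for the genes tested on each chromosome, with the median as a line, the 25th to 75th percentile as a box and the 5th to 95th percentile as whiskers. Right, the share of tested genes raised more than 32-fold, which is 6.45% to 14.1% on the autosomes and 0.539% on X. Genes near absent from L4440_ZK passed the filter through the C01A2.5 libraries, so the share is a description.

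Of the 10 largest rises among genes with a mean of at least 10 CPM over the 6 libraries, 3 were major sperm protein genes (msp-63, msp-10 and msp-45) and 6 of the others carry only a sequence name. C04F12.12, a protein-coding gene of chromosome I, had 20.6, 21.01 and 21.6 CPM in the C01A2.5 libraries, against 0, 0 and 0 CPM in the L4440_ZK libraries, at least 804.5-fold higher by the floor of 3 counts over the group. R08C7.5 had 33.7, 31.9 and 35.5 CPM after C01A2.5 RNAi and 0.0255, 0.03 and 0.0238 CPM with L4440_ZK and ZK354.6 36.1, 35.9 and 39.4 CPM in the C01A2.5 libraries, against 0.0255, 0.06 and 0 CPM in the L4440_ZK libraries. nsph-4.1 stood at 33.2 ± 0.937 CPM in C01A2.5, against 0.0255 ± 0.0441 CPM in L4440_ZK (mean ± SD). Against these the largest falls were shallower. dhs-26, a gene of the short-chain dehydrogenase family on X, was at 1.004, 1.02 and 1.79 CPM in the C01A2.5 libraries, against 23.7, 20.1 and 20.4 CPM in the L4440_ZK libraries (-4.09 ± 0.14). C30G12.2 was at 2.82, 3.71 and 3.98 CPM after C01A2.5 RNAi and 53.6, 47.8 and 48.2 CPM with L4440_ZK and C50E3.12 at 4.92, 6.47 and 7.13 CPM in the C01A2.5 libraries, against 49.6, 44.5 and 49.4 CPM in the L4440_ZK libraries. T22B7.7 fell by 2.41 ± 0.059, C48B6.9 by 2.15 ± 0.092, F55G1.7 by 2.15 ± 0.081 and F14H3.4 by 2.09 ± 0.072. The groups do not overlap in any of these genes, which the rule for naming them required.

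Of the 10 largest falls 3 lie close together on chromosome IV. In WBcel235 they are K01G12.3 (14193496 to 14196155), F02H6.3 (14203427 to 14205354) and the pseudogene WBGene00008537 (14207564 to 14219159), all on the plus strand. K01G12.3 was at 3.33, 3.30 and 3.77 CPM in the C01A2.5 libraries, against 32.9, 29.9 and 29.8 CPM in the L4440_ZK libraries. F02H6.3 was at 16.3, 19.6 and 19.8 CPM after C01A2.5 RNAi and 113, 109 and 104.7 CPM with L4440_ZK. The tested genes between and next to them fell as well, F02H6.2 by 1.72 ± 0.059, the pseudogene WBGene00008534 by 1.47 ± 0.16 and sqrd-1, which encodes an enzyme that detoxifies hydrogen sulfide, by 0.999 ± 0.087. R05A10.1, just upstream, had -0.086 ± 0.46 (adjusted p = 0.859). This run was noticed after the values had been seen, and reads of near-identical neighbours may be split between them.

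C01A2.5 also differed from the other ZK RNAi groups. Relative to the mean of R186.7, ZK795.1 and M04C9.5, 3804 genes (23.1%) rose and 923 (5.60%) fell more than 2-fold. The contrasts share the C01A2.5 libraries, so they are not independent, and the members are given side by side. The target tads-1 had -1.90 ± 0.064 against the other RNAi groups and -1.96 ± 0.072 against L4440_ZK. For spe-9 the changes were 4.54 ± 0.11 and 4.54 ± 0.16, for fog-3 4.68 ± 0.096 and 4.64 ± 0.14, for rme-2 -1.40 ± 0.055 and -1.54 ± 0.063, and for glp-1 -1.18 ± 0.067 and -1.12 ± 0.077, in the same order. The median of the meiosis list was -0.85 against the other groups and -0.95 against L4440_ZK, and that of the apical matrix list was 1.02 and 1.1. A fit of the 6 libraries alone, which leaves out the libraries labelled M04C9.5, gave 3795 rises and 1123 falls over 2-fold against L4440_ZK.

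The 3 C01A2.5 libraries were alike. Over 6985 genes the median SD of log2 CPM was 0.067 in C01A2.5 and 0.056 in L4440_ZK, and the biological coefficient of variation of the ZK libraries was 5.42%. The oocyte list took its lowest share in the first C01A2.5 library and the yolk list its highest there, and for both lists the 3 libraries of C01A2.5 lay on 1 side of the 3 of L4440_ZK.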

How the data were processed

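The submitters' processing notes name bcl2fastq 1.8.4, STAR 2.4.1d, featureCounts 1.4.6-p4 and the build WBcel235. The values used are raw read counts per gene, deposited by the authors in 1 table of 30 libraries, and 0 columns were unmatched. The RPKM table was not used. Libraries were made with a polyA-selecting kit (TruSeq RNA v2, per the labels' protocols) that does not mark strand, so a gene and an overlapping antisense gene cannot be told apart, and families of near-identical copies share reads.

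Counts of the 15 ZK libraries were filtered by filterByExpr, scaled by trimmed-mean factors and fitted with edgeR 4.0.16 (R 4.3.3; limma 3.58.1) as 5 group means, with robust quasi-likelihood dispersion on 10 residual degrees of freedom. All p-values were adjusted by Benjamini-Hochberg over 16495 genes. Changes over 2-fold were called with glmTreat. The standard error of a fold change was taken from its F statistic, as its size over the root of F. A list's share is its part of all counts of a library, and its other values are counts of calls and the median of its members, with no list test. In C01A2.5 against L4440_ZK simulated on 14462 genes, the test recovered 92% of 50 genes changed 1.5-fold and 100% of those changed 2-fold, with 15 false calls. Only a small set of genes was changed there, by at most 4-fold, while 88.1% of genes were called in the data. The simulation thus does not cover a shift of most of the transcriptome and its effect on the scaling.

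The members and the gene lists were chosen with earlier results of these data known. Named were the target and its tested neighbours, the 10 largest rises and falls over 2-fold with groups apart and a mean of at least 10 CPM, the 10 most abundant genes of each group, cell type markers, up to 6 members of each list by smallest p, and members of lists of at most 40 tested genes. Not all of these are printed, and genes from longer lists outside those 6, the pairs of family members and the run on chromosome IV were chosen after their values were seen. Sequences were not used. Alternatives were other scalings, no filter, DESeq2 1.42.0, other sets of libraries and controls, each library left out and a replicate block.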

Additional observations from a re-analysis of the deposited data

Results flagged for a closer look

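Major sperm protein genes took 0.00162% to 0.00544% of the counts in the 15 libraries of the series with the prefix RM, which the comparison of C01A2.5 with L4440_ZK does not use. The L4440_ZK libraries held 0.00019% to 0.000674%, so every RM library lay above them, and the other ZK RNAi libraries held 0.000385% to 0.00237%, which overlaps the RM range. This was noted because a signal stands above the control level in libraries outside the comparison. These ranges lie far under the 0.338% to 0.381% of the C01A2.5 libraries. The difference between RM and L4440_ZK libraries was not tested.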

How the results depend on the processing

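Of the counts of calls and the target value under the alternatives, 111 stayed within 1.5 times or kept direction and call, and 6 did not. Falls over 2-fold numbered 1023, against 2149 with relative log expression factors, 369 with library totals, 3451 after centring on the median gene, 591 with all 6 L4440 libraries as control and 1743 with DESeq2. Rises over 2-fold numbered 3931, against 2565 with DESeq2. With each library left out in turn the rises were 3664 to 4008 and the falls 1014 to 1232. The target stayed lowered throughout.

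Of the genes called and named, leaving out the neighbours of the target, 2 changed sign: rpl-24.2 had a log2 fold change of -0.15 after centring, and dpy-9 of -0.21 with all 6 L4440 libraries. The cause of these shifts was not tested. Genes printed with an adjusted p above 0.05 (cpb-1, nhr-23, his-72, alg-1, tra-1, snb-1 and tbx-37) fell under it with at least 1 other scaling. The sign of the list medians of DAF-16 genes, F-box genes, collagens, lipases, antioxidant, heat shock, fatty acid, growth factor, lysozyme, antimicrobial and heterochronic genes changed under at least 1 alternative.

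The labels give no replicate numbers. Deviations of libraries with the same accession order had r = 0, -0.039 and 0.063 over 7710 genes, and those of different order -0.151 to 0.192. Deviations from a mean of 3 libraries are bound to one another, so these values cannot exclude a pairing. A fit with that order as a replicate block gave 8505 rises and 5985 falls, and 3910 and 1003 over 2-fold. Genes under 0.1 CPM in the controls rest on a few counts there, which limits their fold changes.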
